A study of Mus musculus with 16 samples.

Results

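Calcium stored in the endoplasmic reticulum leaves through 2 families of release channels and is returned by SERCA pumps. Ryanodine receptors (genes Ryr1, Ryr2 and Ryr3) open when calcium or a membrane voltage sensor triggers them, and inositol 1,4,5-trisphosphate (IP3) receptors (Itpr1, Itpr2 and Itpr3) open when IP3 binds after activation of Gq-coupled receptors. The pumps SERCA2 (Atp2a2) and SERCA3 (Atp2a3) use ATP to refill the store. In striatum, medium spiny neurons, the main output cells, use this store to shape responses to glutamate and dopamine.

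All probe sets whose platform annotation gave exactly 1 gene symbol, and that symbol 1 of these 8, were taken as members. They were 22 of 34945 such probe sets and covered 7 of the 8 genes: 2 for Ryr1, 2 for Ryr2, 3 for Ryr3, 6 for Itpr2, 1 for Itpr3, 6 for Atp2a2 and 2 for Atp2a3. Itpr1 was not analysed here. Of the 22, 17 had a mean over all arrays at or above 5.942, the 40th percentile of probe-set means, and all 22 were tested. The 5 dimmer ones were Ryr2 1421126_at, Itpr2 1421678_at and 1444418_at, Itpr3 1417297_at and Atp2a2 1443551_at. Probe sets differ in how brightly they hybridise, so levels are compared between groups within a probe set and not between probe sets.

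RNA of whole striatum from mice of strain B6xCBA was hybridised to 16 Affymetrix whole-genome mouse expression arrays, 4 biological replicates for each of 4 genotypes. Wild type, R6/2, DREAM+/- and their cross, R6/2 x DREAM+/-, were compared. The R6/2 line models Huntington's disease by expressing exon 1 of the human huntingtin gene, with its CAG tract expanded, from the human promoter. DREAM (gene Kcnip3) is a calcium-binding repressor of transcription, and DREAM+/- mice, from a knockout line, have 1 disrupted allele. R6/2 x DREAM+/- mice came from crossing DREAM knockout with R6/2 mice. No source used here gives the age or sex of the animals, or says whether tissue was pooled. Values are log2 probe-set levels, and a difference of -1 is a halved level. A probe set was called at a limma Benjamini-Hochberg adjusted p under 0.05 over all 34945, and n = 4 arrays in each group throughout.

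The labels name striatal neurons, but the RNA was that of whole tissue, in which fewer cells of a type and less RNA per cell cannot be told apart. On probe set 1418544_at, Kcnip3 read 9.41 to 9.89 in wild type and 9.04 to 9.23 in R6/2. It read 7.72 to 7.82 in DREAM+/- and 7.43 to 7.67 in R6/2 x DREAM+/-. On 1449129_a_at it read 8.22 to 8.83 in wild type and 7.89 to 8.10 in R6/2. There DREAM+/- read 5.40 to 5.85 and R6/2 x DREAM+/- 5.24 to 5.57, all under 5.942. Each array thus lay on the side of its DREAM label. On both probe sets, every array with the disrupted allele lay more than 1 below every array without it, further than a halved level. All 11 measured markers of medium spiny neurons lay above 5.942. In R6/2 against wild type 9 of them were called lower and 0 higher (median -0.75), and their summed linear level was 35568 to 39548 in R6/2 against 54106 to 60723 in wild type. In R6/2 x DREAM+/- against DREAM+/- 10 of the 11 were lower (median -0.68; 31611 to 41215 against 49989 to 53976). Of 8 cortical projection neuron markers, 5 were lower in R6/2 than in wild type and 5 higher in R6/2 x DREAM+/- than in R6/2. In R6/2 x DREAM+/- against DREAM+/- 0 of these 8 were called (median -0.01). Of 6 cerebellar markers 5 lay under 5.942; in R6/2 Gabra6 and En2 read higher (0.23 and 0.27) and Gdf10 lower (-0.38). Of 11 astrocyte markers 4 fell and 1 rose, and in R6/2 against wild type 0 of 10 vascular, 0 of 7 choroid plexus and 0 of 4 blood markers were called by limma. The choroid plexus content was uneven, with sums of 10320 to 23478 in R6/2 and 18867 to 21680 in wild type. Its marker Kcne2 was called higher in DREAM+/- against wild type (1.86) and in R6/2 x DREAM+/- against R6/2 (2.68). The 6 other choroid plexus markers were not. R6/2 replicate 1 read 6.49 for the female-specific transcript Xist, where the other arrays read 11.04 to 12.16. R6/2 x DREAM+/- replicate 3 had a mean correlation of 0.9915 with its group, where the other arrays had 0.9933 to 0.9980. Calls of the members and counts of the store list that depend on these 2 arrays are also given without them.

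The upstream sequences of Ryr1 and Ryr2 are shown because DREAM is known to bind a downstream regulatory element (DRE) whose core is GTCA. They are the 250 bases before the RefSeq start, build GRCm38.p6: Ryr1 at chr7:29125152-29125401, minus strand, and Ryr2 at chr13:12106946-12107195, minus strand. Capitals mark each GTCA or its reverse complement TGAC.
Ryr1: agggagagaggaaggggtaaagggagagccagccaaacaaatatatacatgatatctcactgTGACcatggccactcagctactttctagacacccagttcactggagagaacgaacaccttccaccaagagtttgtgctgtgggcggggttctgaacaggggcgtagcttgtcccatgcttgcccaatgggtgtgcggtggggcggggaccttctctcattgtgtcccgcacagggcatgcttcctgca
Ryr2: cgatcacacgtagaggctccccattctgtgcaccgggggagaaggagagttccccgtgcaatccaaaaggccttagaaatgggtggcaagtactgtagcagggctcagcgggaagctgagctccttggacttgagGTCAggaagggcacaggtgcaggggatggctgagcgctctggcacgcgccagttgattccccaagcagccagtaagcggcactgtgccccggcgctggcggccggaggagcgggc
The set of upstream sequences used held 5 of the 8 genes. Ryr1, Ryr2 and Itpr2 had 1 match each in this window, and Itpr3 and Atp2a3 had 0. Bases downstream of the start were not searched, so matches there are not counted. So short a core is common: 80.2% of 32851 windows of this length held at least 1, with a median of 2. None of the 5 windows held the cyclic AMP response element TGACGTCA, which contains the core on both strands and was found in 1.55% of all windows. The GC box GGGCGG, searched on both strands, was found 2 times for Ryr1, 0 times for Ryr2, 4 times for Itpr2, 1 time for Itpr3 and 5 times for Atp2a3, and in 32.7% of all windows.

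Release channels and pumps were first compared with and without the R6/2 transgene. Ryanodine receptor and SERCA2 probe sets were lower in R6/2, 1 SERCA3 probe set was higher and no probe set of Itpr2 or Itpr3 passed. Of the 22 probe sets, 10 were called (9 lower, 1 higher), where limma called 13.2% of all probe sets tested (6.42% lower, 6.74% higher). The groups did not overlap for 7 of the 22, against 17% of all. The median log2 difference over the members was -0.20, and over all probe sets 0.025. On the DREAM+/- background 7 of 22 were called, each lower, where 6.93% of all were called (4.01% lower). The group means came from arrays not shared with the first comparison, but the spread in both tests was estimated from all 16 arrays. The median over the members was -0.11 and over all probe sets 0.012. The groups did not overlap for 7, against 12.8% of all.

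Ryr1, the release channel best known from skeletal muscle, showed the largest differences among the members on probe set 1427306_at. It read 8.37, 8.40, 8.17 and 8.45 in wild type and 6.10, 5.89, 6.26 and 6.24 in R6/2. In DREAM+/- it read 8.13, 8.34, 8.34 and 7.92, and in R6/2 x DREAM+/- 5.65, 6.38, 7.03 and 5.88. Every array with the transgene lay below every array without it, and the crossed animals were spread more widely (SD 0.61) than the others (0.12 to 0.20). Ryr1 fell by 2.23 in R6/2 (95% interval -2.66 to -1.79, limma adjusted p = 3.44e-06), to 21.4% of the wild-type level. With 1 DREAM allele disrupted it fell by 1.95 (-2.38 to -1.51, limma adjusted p = 2.65e-05), to 25.9%. The R6/2 arrays lay close to the brightness level of 5.942, where background is a larger part of the signal. Without R6/2 x DREAM+/- replicate 3, the highest of its group, the second difference was -2.21. Of 9 striated muscle markers 6 lay under 5.942, and in R6/2 Acta1, skeletal muscle actin, was the only one called (-0.38). Their summed linear level was 573 to 620 in R6/2 and 625 to 695 in wild type. The part of these markers, or of the fall of medium spiny neuron markers given above, in the differences of Ryr1 and the other members was not tested.

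The other Ryr1 probe set, 1457347_at, read 5.94 to 6.65 over all arrays, near the same brightness level throughout. It read 6.11 to 6.59 in wild type and 5.94 to 6.20 in R6/2, where the ranges overlapped, and 6.45 to 6.65 in DREAM+/- and 6.01 to 6.24 in R6/2 x DREAM+/-, where they did not. It fell by 0.33 and 0.43 (limma adjusted p = 0.0207 and 0.00633). The first of these calls was lost without any 1 of 5 arrays (wild-type replicates 1 and 3, R6/2 replicates 2, 3 and 4; adjusted p up to 0.0637). Both Ryr1 probe sets thus had the same sign in both comparisons but differed in size.

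Ryr2, the channel best known from heart and also expressed across the brain, was measured by 1450123_at at 9.36, 9.32, 9.40 and 9.31 in wild type and 8.81, 8.95, 8.95 and 8.93 in R6/2. The groups did not overlap, and it fell by 0.44 (95% interval -0.59 to -0.28, limma adjusted p = 0.000776). In DREAM+/- it read 9.57, 9.54, 9.36 and 9.42 and in R6/2 x DREAM+/- 8.99, 9.26, 9.40 and 9.25. There the ranges overlapped, and the difference was -0.25 and did not pass (-0.40 to -0.09, limma adjusted p = 0.055). It passed under 7 of 26 alternatives (adjusted p from 0.0126 to 0.164 over all of them). These were the filter on dim probe sets, 1 probe set per gene, quantile normalization, a robust fit with a trend, array weights, leaving out R6/2 x DREAM+/- replicate 3 (-0.31, adjusted p = 0.0132) and leaving out both arrays that stand apart (adjusted p = 0.0139). The dim Ryr2 probe set 1421126_at read 4.75 to 5.25 over all arrays and did not pass in any of the comparisons.

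Ryr3, expressed in several brain regions including striatum and hippocampus, had 2 bright probe sets with like values. On 1427427_at it read 10.04, 9.99, 10.01 and 10.01 in wild type and 9.69, 9.70, 9.62 and 9.63 in R6/2. In DREAM+/- it read 10.20, 10.31, 10.20 and 10.18, and in R6/2 x DREAM+/- 9.64, 9.82, 9.91 and 9.44. The transgenic groups lay below their controls with no overlap. It fell by 0.35 in R6/2 (limma adjusted p = 0.00517) and by 0.52 on the DREAM+/- background (limma adjusted p = 0.000462). Probe set 1452533_at fell by 0.36 and 0.52 (limma adjusted p = 0.00901 and 0.00118). The third, 1432133_at, gave -0.24 and -0.23 and did not pass (limma adjusted p = 0.111 and 0.186).

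**Figure D1:**
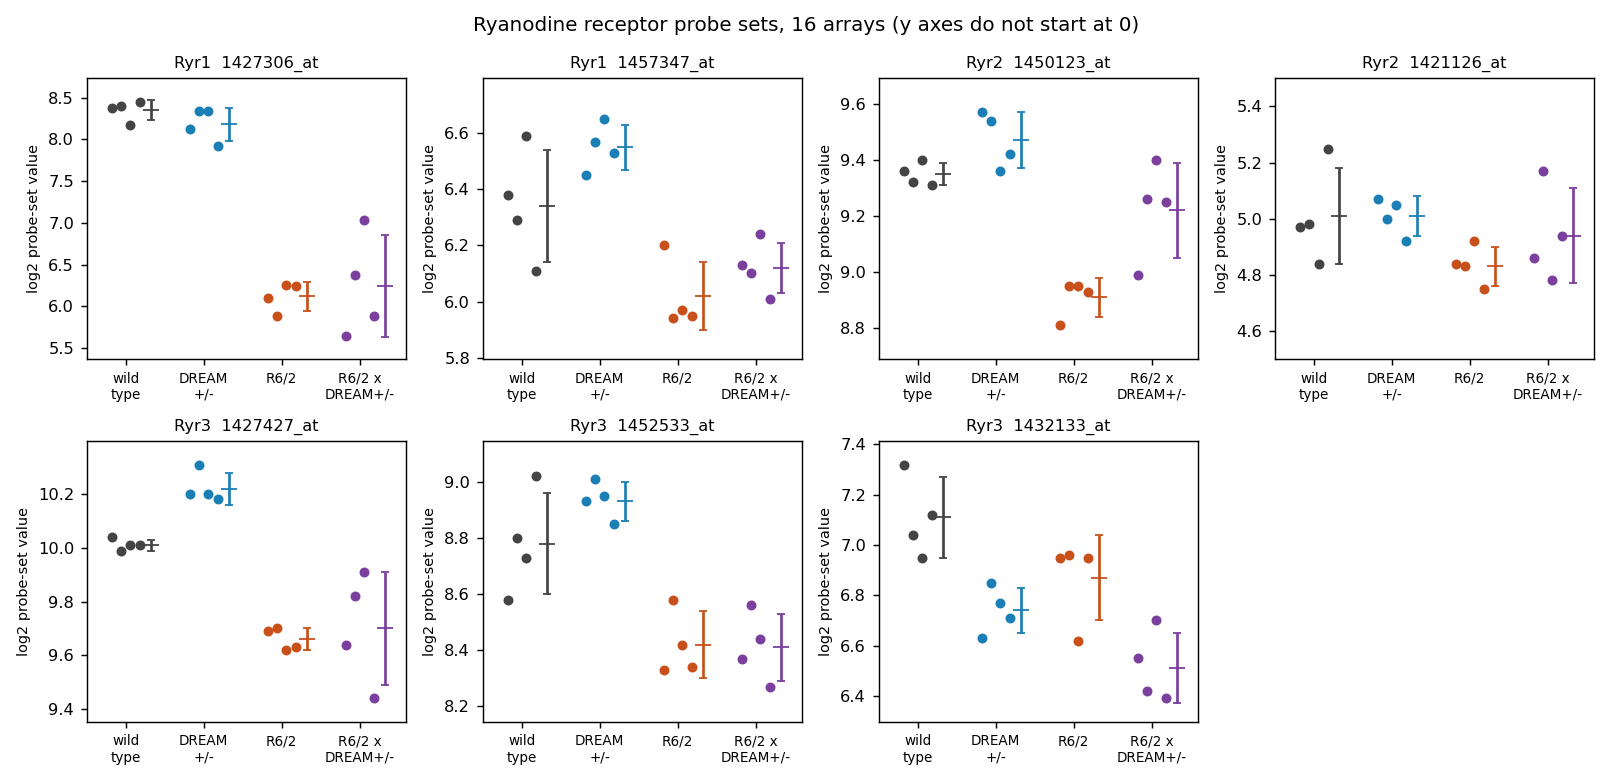
Log2 probe-set value (y axis, its own range in each panel) of the 7 ryanodine receptor probe sets in the 4 genotypes (x axis). Each point is 1 array, and the bar beside it is the mean ± SD of 4. Ryr1 1427306_at reads 8.17 to 8.45 in wild type and 5.89 to 6.26 in R6/2, and Ryr3 1432133_at is the panel in which both DREAM+/- groups lie low.

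SERCA2, encoded by Atp2a2 and the main pump of the neuronal store, was lower on 4 of 6 probe sets in R6/2 and on 3 of 6 in R6/2 x DREAM+/-. On the brightest, 1416551_at, it read 13.04, 13.10, 13.06 and 13.12 in wild type and 12.73, 12.65, 12.74 and 12.72 in R6/2. It read 13.05, 13.09, 13.08 and 13.01 in DREAM+/- and 12.63, 12.75, 12.89 and 12.72 in R6/2 x DREAM+/-. The ranges with and without the transgene did not overlap on either background. It fell by 0.37 in R6/2 (95% interval -0.48 to -0.26, limma adjusted p = 0.000202), to 77.4% of the wild-type level. On the DREAM+/- background it fell by 0.31 (-0.42 to -0.20, limma adjusted p = 0.00175), to 80.7%.

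Atp2a2 probe sets 1452363_a_at and 1427250_at were also bright, and the transgenic groups lay below their controls without overlap on both. They fell by 0.38 and 0.23 in R6/2 (limma adjusted p = 0.00138 and 0.0126). In the cross they fell by 0.34 and 0.22 (limma adjusted p = 0.0062 and 0.0269). The last of these calls was lost without any 1 of 4 arrays (DREAM+/- replicates 2 and 3, R6/2 x DREAM+/- replicates 1 and 3; adjusted p up to 0.0997). Probe set 1437797_at fell by 0.26 in R6/2 (limma adjusted p = 0.0307), which was lost without any 1 of 6 arrays (wild-type replicates 1, 3 and 4, R6/2 replicates 1, 3 and 4; up to 0.101), and read -0.05 on the DREAM+/- background. Probe sets 1427251_at and 1443551_at gave -0.17 and -0.22 in R6/2, and -0.11 and -0.10 on the DREAM+/- background, and did not pass. All 6 probe sets of Atp2a2 had a negative difference in both comparisons.

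SERCA3, encoded by Atp2a3, is the pump of lower calcium affinity. On 1421129_a_at it read 7.26, 7.20, 7.01 and 7.22 in wild type and 7.51, 7.31, 7.56 and 7.48 in R6/2, with no overlap. It rose by 0.29 (95% interval 0.11 to 0.48, limma adjusted p = 0.0342), the only member called higher in R6/2. This call was lost without any 1 of 5 arrays (wild-type replicates 2 and 3, R6/2 replicates 1, 3 and 4; adjusted p up to 0.1) and after the array medians were equalised (adjusted p = 0.0528). In the cross, against DREAM+/-, the difference was 0.15 (limma adjusted p = 0.382). The other Atp2a3 probe set, 1450124_a_at, gave 0.09 and 0.03 and did not pass.

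**Figure D2:**
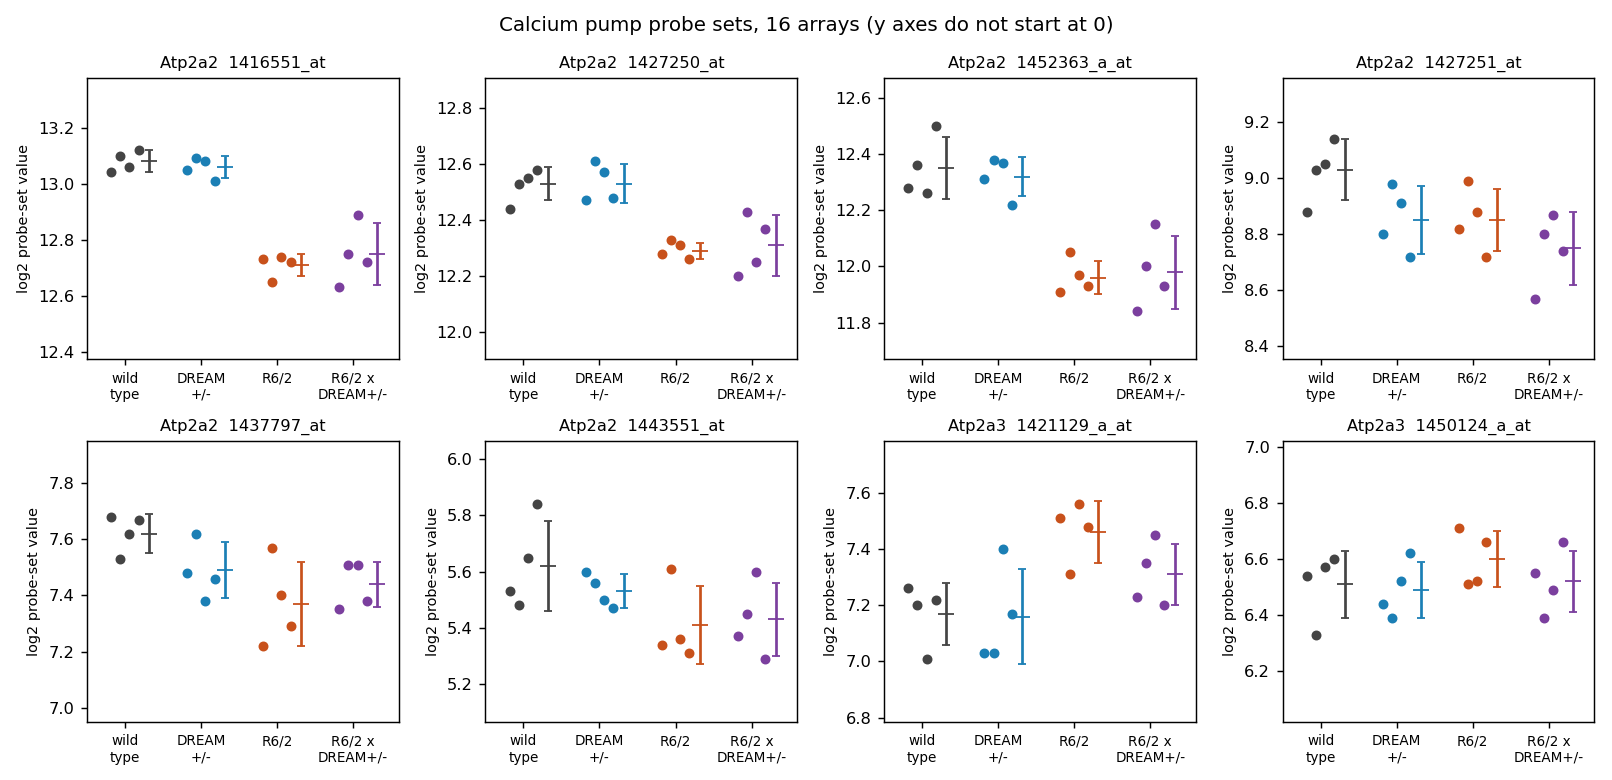
Log2 probe-set value (y axis, its own range in each panel) of the 6 Atp2a2 and 2 Atp2a3 probe sets in the 4 genotypes (x axis), with 1 point per array and the mean ± SD of 4 beside it. On Atp2a2 1416551_at the R6/2 arrays lie between 12.65 and 12.74 and the wild-type arrays between 13.04 and 13.12, while Atp2a3 1421129_a_at lies higher in R6/2.

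The IP3 receptor genes measured, Itpr2 and Itpr3, gave no call in any comparison. Itpr1 was not analysed here, so nothing is shown for it. Itpr2, the isoform prominent in astrocytes, was measured by 6 probe sets and Itpr3, best known from epithelial and secretory cells, by 1. On the brightest Itpr2 probe set, 1427287_s_at, wild type read 6.88, 6.95, 6.47 and 7.14 and R6/2 read 7.14, 6.99, 6.83 and 7.03. DREAM+/- read 6.68, 6.87, 6.88 and 6.82 and R6/2 x DREAM+/- 6.73, 6.68, 7.16 and 6.64, and all 4 ranges overlapped. The R6/2 differences over the 6 Itpr2 probe sets ran from 0.02 to 0.14 against wild type and from -0.11 to 0.13 on the DREAM+/- background.

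The intervals limit how large a difference in the Itpr2 or Itpr3 probe-set values could be, which need not equal a change in RNA where signals are dim. For Itpr2 1427693_at, which had the narrowest, R6/2 against wild type gave 0.02 (95% interval -0.12 to 0.16, limma adjusted p = 0.873). For 1427287_s_at the interval was -0.13 to 0.41. Itpr3 1417297_at read 5.49 to 5.72 in wild type, 5.58 to 5.77 in DREAM+/-, 5.64 to 5.88 in R6/2 and 5.50 to 5.79 in R6/2 x DREAM+/-, all under 5.942, and gave 0.09 in R6/2 (-0.07 to 0.25) and -0.04 on the DREAM+/- background (-0.20 to 0.12). Of these 7, 3 probe sets lay under that brightness level, where background is a larger part of the signal. The smallest unadjusted p among the 7 over all 5 comparisons was 0.079, for Itpr2 1421678_at in DREAM+/- against wild type.

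**Figure D3:**
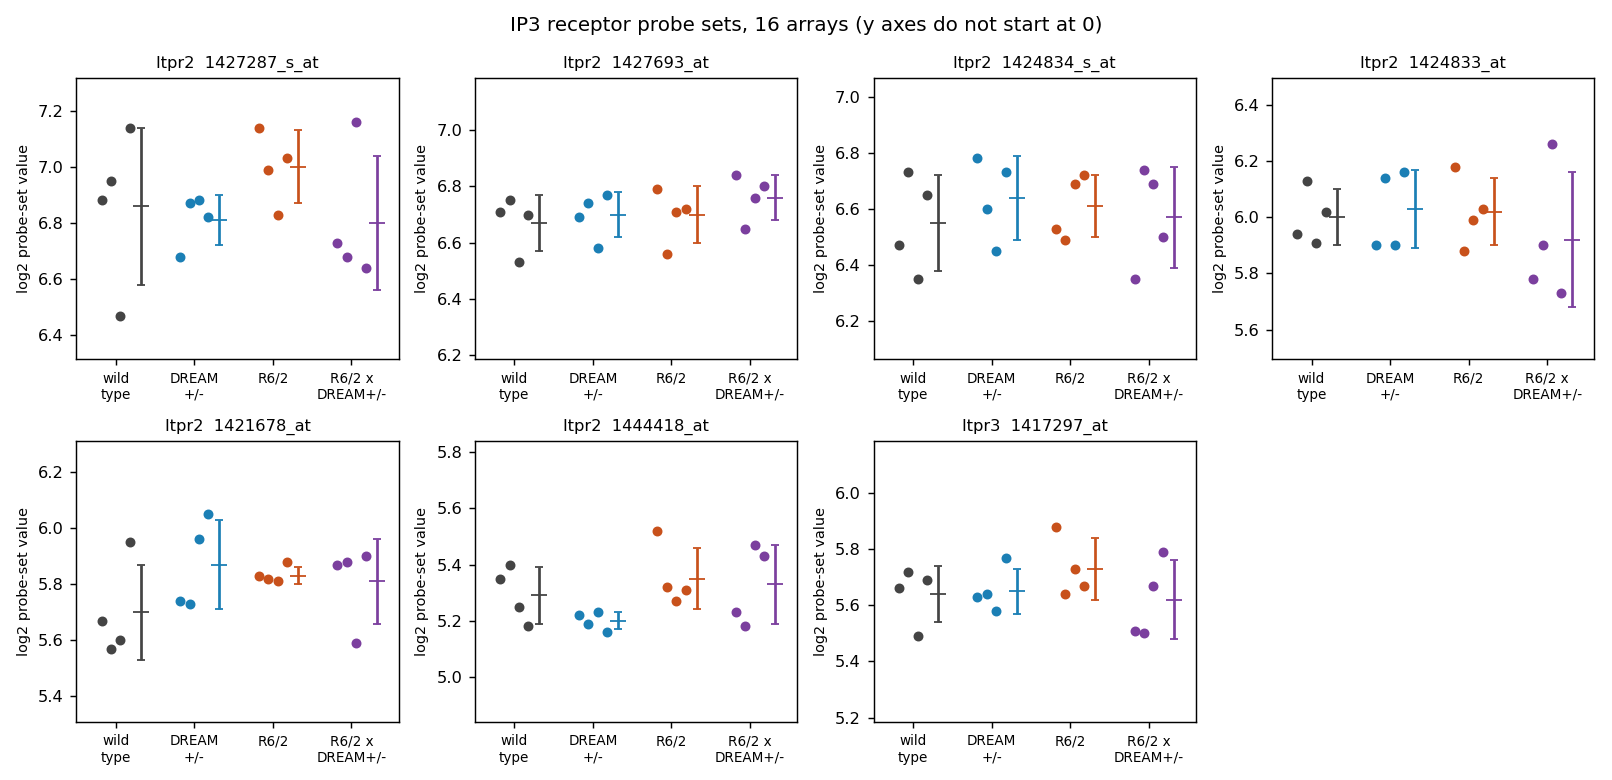
Log2 probe-set value (y axis, its own range in each panel) of the 6 Itpr2 and 1 Itpr3 probe sets in the 4 genotypes (x axis), with 1 point per array and the mean ± SD of 4 beside it. The ranges of R6/2 and wild type overlap on each panel, as on Itpr2 1427693_at (6.56 to 6.79 against 6.53 to 6.75).

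**Figure D4:**
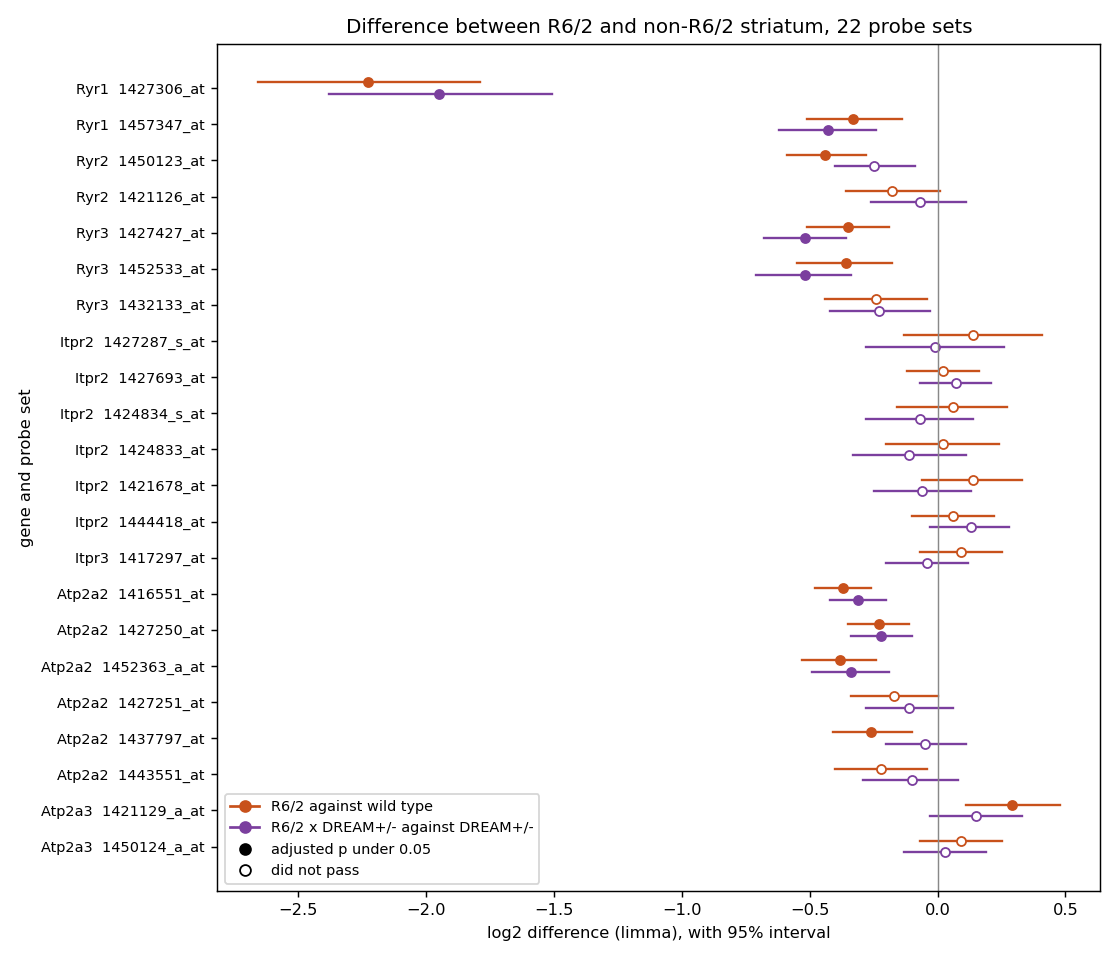
Log2 difference with its 95% interval (x axis) for the 22 probe sets (y axis) in R6/2 against wild type and in R6/2 x DREAM+/- against DREAM+/-. Filled points passed at an adjusted p under 0.05. Ryr1 1427306_at lies far to the left in both (-2.23 and -1.95), Atp2a2 and Ryr3 lie left of 0, and Itpr2 and Itpr3 lie around 0.

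The comparison of DREAM+/- with wild type asks what the loss of 1 DREAM allele changed without the transgene. No member was called by limma (0 of 22, where 2.26% of all probe sets were called, 1.11% lower and 1.15% higher), and 4 had an unadjusted p under 0.05. Those 4 were Ryr1 1457347_at (0.21), Ryr3 1427427_at (0.21), Ryr3 1432133_at (-0.37) and Atp2a2 1427251_at (-0.17). In R6/2 x DREAM+/- against R6/2, the cross the study is about, 2 of 22 were called, 1 higher and 1 lower, where 7.76% of all were called (3.53% higher, 4.22% lower). The groups did not overlap for 2 and 1 of the 22, against 9.21% and 12.8% of all. Ryr1 1427306_at gave -0.16 and 0.11 in these comparisons, and Atp2a2 1416551_at gave -0.02 and 0.04 (limma adjusted p from 0.729 to 0.908). These comparisons each share a group with those of the R6/2 effect, so their values are not independent of them.

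Ryr2 1450123_at was the member called higher. It read 8.81 to 8.95 in R6/2 and 8.99 to 9.40 in R6/2 x DREAM+/-, with no overlap, a difference of 0.32 (95% interval 0.16 to 0.47, limma adjusted p = 0.017). It passed on leaving out any array but R6/2 replicate 1 (adjusted p = 0.0537), and without the 2 arrays that stand apart it was 0.22 and did not pass (adjusted p = 0.0785). Of 8 cortical markers, 5 were also called higher in this comparison, and Cux2 (-0.01), Emx1 (0.24) and Lamp5 (0.13) did not pass. The summed linear level of the 8 was 3259 to 3460 in R6/2 and 3786 to 4358 in R6/2 x DREAM+/-. It was 3927 to 4248 in wild type and 4157 to 4651 in DREAM+/-. Lamp5, the brightest of them (mean 11.23), makes up the largest part of this sum. Slc17a7 (a vesicular glutamate transporter of cortical neurons) rose by 1.02 (limma adjusted p = 0.00145) and Neurod6 by 0.87 (limma adjusted p = 0.019). Among the R6/2 x DREAM+/- arrays, replicate 1 was lowest and replicate 3 highest in both Ryr2 (8.99 and 9.40) and the cortical sum (3786 and 4358). In DREAM+/-, replicate 3 was lowest and replicate 1 highest in both. The other groups did not share this order. In wild type, replicate 3 was highest in Ryr2 (9.40) and lowest in the sum (3927). In R6/2, replicate 1 was lowest in Ryr2 (8.81) and replicate 2 in the sum (3259). In R6/2 against wild type, where Ryr2 fell, the cortical sum was also lower without overlap, and Slc17a7 fell by 0.92 and Neurod6 by 0.95 (adjusted p = 0.00115 and 0.00574). In R6/2 x DREAM+/- against DREAM+/-, Ryr2 gave -0.25 and did not pass. There 0 of the 8 cortical markers were called (median -0.01), with -0.12 for Slc17a7 and 0.01 for Neurod6, and the ranges of the sum overlapped. The part of cortical tissue in the Ryr2 differences was not tested.

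Ryr3 1432133_at was the member called lower. It read 7.32, 7.04, 6.95 and 7.12 in wild type, 6.63, 6.85, 6.77 and 6.71 in DREAM+/-, 6.95, 6.96, 6.62 and 6.95 in R6/2 and 6.55, 6.42, 6.70 and 6.39 in R6/2 x DREAM+/-. DREAM+/- lay below wild type with no overlap, and R6/2 x DREAM+/- overlapped R6/2 only through R6/2 replicate 3. The difference was -0.36 within R6/2 (95% interval -0.55 to -0.16, limma adjusted p = 0.0292) and -0.37 without the transgene (-0.57 to -0.17, limma adjusted p = 0.05, which did not pass). The first call was lost without any 1 of 6 arrays (R6/2 replicates 1, 2 and 4, R6/2 x DREAM+/- replicates 1, 2 and 4; adjusted p up to 0.0859). The second passed without any 1 of 3 arrays (wild-type replicate 3, R6/2 replicate 3, R6/2 x DREAM+/- replicate 3; adjusted p down to 0.0219). The other Ryr3 probe sets did not go with it: 1427427_at gave 0.04 within R6/2 and 0.21 without the transgene, and 1452533_at gave -0.01 and 0.15, with no call.

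Ryr3 and Kcnip3 lie on the same mouse chromosome in the RefSeq gene table of assembly GRCm38.p6, with 296 genes between them. Of the 309 single-symbol probe sets of those genes, 24 (7.77%) were called in DREAM+/- against wild type and 40 (12.9%) in R6/2 x DREAM+/- against R6/2, where 2.26% and 7.76% of all probe sets were. The part of linked sequence around the disrupted allele in the Ryr3 1432133_at difference was not tested.

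**Figure D5:**
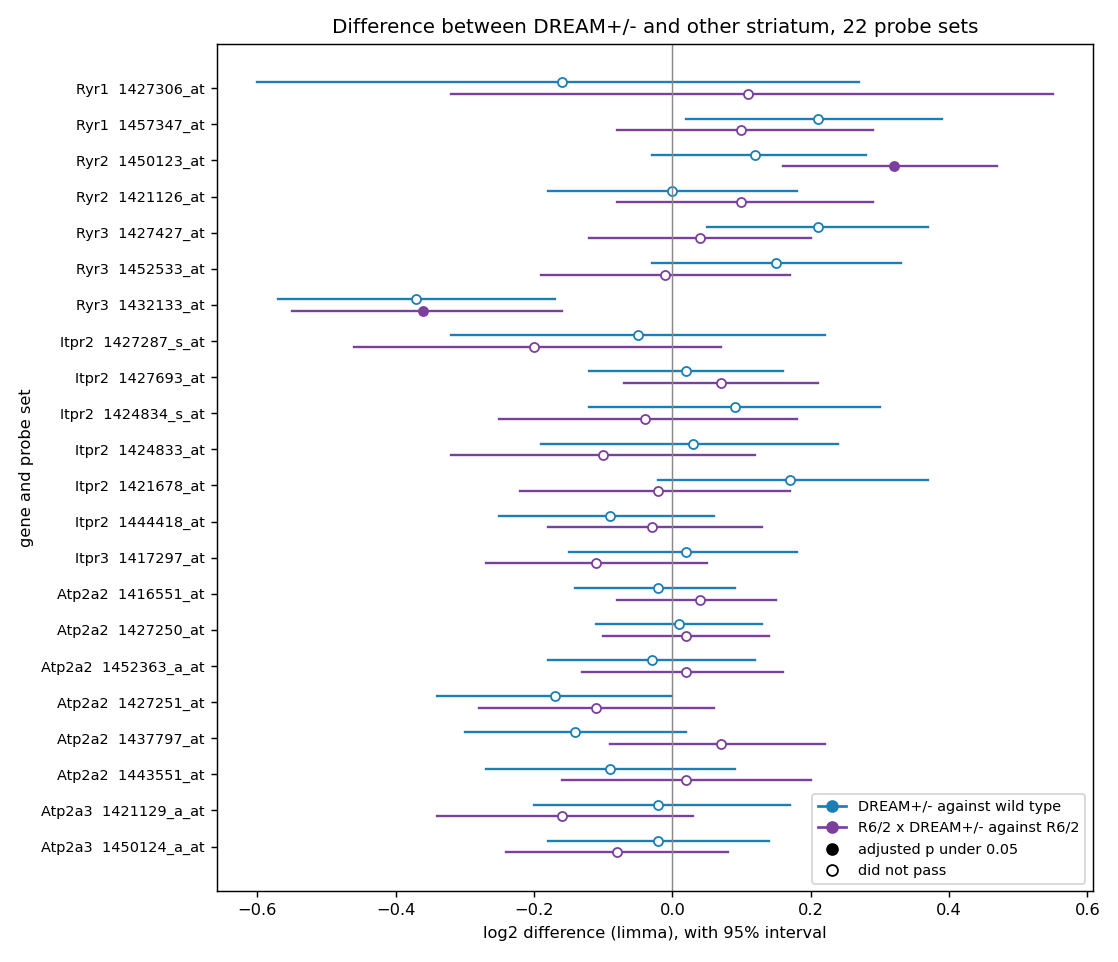
Log2 difference with its 95% interval (x axis) for the 22 probe sets (y axis) in DREAM+/- against wild type and in R6/2 x DREAM+/- against R6/2. Filled points passed at an adjusted p under 0.05: Ryr2 1450123_at at 0.32 and Ryr3 1432133_at at -0.36, both within R6/2.

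Whether the R6/2 effect differed between the DREAM backgrounds was tested as an interaction. No member was called by limma (0 of 22, and 0% of all probe sets); at an unadjusted p under 0.05 there were 0 members and 2121 probe sets in all. For Ryr1 1427306_at the interaction was 0.28, with a 95% interval from -0.34 to 0.90 (limma adjusted p = 0.916), and without R6/2 x DREAM+/- replicate 3 it was 0.01. For Ryr2 1450123_at it was 0.19 (-0.03 to 0.41, adjusted p = 0.848), so its call on 1 background and not on the other does not show a difference between them. For Atp2a2 1416551_at it was 0.06 (-0.10 to 0.22), the narrowest interval of the 22. The differences between backgrounds were thus within the error of these arrays, and the Ryr1 interval leaves room for a large one.

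Other genes of the store were taken from a list of 76 names, of which 70 were measured, with the brightest probe set standing for each gene. In R6/2 against wild type 10 were lower, 5 higher and 55 did not pass, where 7.44% of all genes were lower and 8.22% higher; the list's median was 0.02 and that of all genes 0.030. On the DREAM+/- background 7 were lower and 3 higher (4.71% and 3.63% of all genes), and 6 and 0 after the array medians were equalised. Without any 1 of DREAM+/- replicates 2 and 3 and R6/2 x DREAM+/- replicates 1, 2 and 4, the 10 called became 4 to 6. Without wild-type replicate 2, the 15 called in R6/2 against wild type became 9, and after the array medians were equalised 10 were lower and 2 higher there. In DREAM+/- against wild type 1 was higher and 0 lower (0.929% and 1.17%), and in R6/2 x DREAM+/- against R6/2 6 were higher and 0 lower (2.91% and 4.73%). That split rested on R6/2 x DREAM+/- replicate 3: without it 5 were higher and 6 lower, and without both arrays that stand apart 4 were higher and 3 lower. With array weights 5 were higher and 4 lower. Without any 1 of R6/2 replicates 3 and 4 and R6/2 x DREAM+/- replicate 2, 3 were higher and 0 lower. In the interaction limma called 0.

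Among partners of the release channels and store proteins, 7 of 28 were lower in R6/2 and Cisd2 was higher (0.19). Homer1, a scaffold that ties IP3 and ryanodine receptors to glutamate receptors, fell from 12.13 ± 0.03 to 11.49 ± 0.05 (SD, limma adjusted p = 3.6e-07). Tmem38a, a store counter-ion channel, fell by 0.46 (adjusted p = 0.00567), and Casq2, a calcium buffer of the store lumen, fell by 0.29 (adjusted p = 0.00786). In R6/2 x DREAM+/- against DREAM+/- the values were -0.54 for Homer1 (adjusted p = 3.57e-06), -0.16 for Tmem38a and -0.11 for Casq2, and those of Tmem38a and Casq2 did not pass. Against R6/2, Homer1, Tmem38a and Casq2 were higher in R6/2 x DREAM+/-, by 0.16, 0.45 and 0.44 (limma adjusted p = 0.0344, 0.0142 and 0.00111). In that comparison 5 of 8 cortical markers were also called higher, while in R6/2 x DREAM+/- against DREAM+/- 0 of 8 were called. The part of cortical tissue in these 3 differences was not tested.

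Genes that make and remove IP3 had 2 of 16 lower and 1 higher in R6/2. Plcb1, a phospholipase C that makes IP3, fell by 0.48 (limma adjusted p = 1.46e-05), and Itpka, a kinase that removes it, fell by 0.74 (adjusted p = 0.000272). Inpp1, a phosphatase of inositol phosphates, rose by 0.35 (adjusted p = 0.00553). On the DREAM+/- background the values were -0.37, -0.78 and 0.27 (adjusted p = 0.000333, 0.00031 and 0.0461), and Grm5 (-0.27) and Chrm1 (-0.33), receptors that signal through Gq, were called too (adjusted p = 0.0311 and 0.0423). Of 10 store-operated entry genes, Trpc6, a cation channel, fell by 0.42 (adjusted p = 0.00324; its mean over all arrays of 5.28 lay under 5.942) and Saraf, an inhibitor of store-operated entry, rose by 0.16 (adjusted p = 0.0426). Of 11 mitochondrial uptake genes, Micu2, a regulator of the uniporter, rose by 0.26 (adjusted p = 0.00417) and Vdac3, an outer membrane channel, by 0.16 (adjusted p = 0.0414). In the cross against DREAM+/- the values were -0.38 for Trpc6 and 0.19 for Vdac3, which passed (adjusted p = 0.011 and 0.0311), and 0.11 for Saraf and 0.16 for Micu2, which did not (adjusted p = 0.214 and 0.0946). Saraf was also the gene called higher in DREAM+/- against wild type (0.23, adjusted p = 0.0173), a count of 1 that ran from 0 (without DREAM+/- replicate 1 or 3) to 3 (without R6/2 x DREAM+/- replicate 3). None of the 5 other measured pumps and pump regulators was called by limma in R6/2.

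The genes whose profile over the 16 arrays was most like that of a member were found for Ryr1, Ryr3 and Atp2a2, whose brightest probe sets were called in both R6/2 comparisons. Likeness was the root mean square difference of log2 values after each gene was centred on its own mean, a description over arrays that share the genotype groups. For Ryr1 1427306_at the nearest were Abi3bp (0.292), Phex (0.335) and Ddit4l (0.360), where the median gene was at 1.101. For Ryr3 1427427_at they were Crybg3 (0.090), Akap9 (0.092) and Iqgap2 (0.095), with a median of 0.284. For Atp2a2 1416551_at they were Rasgrp1 (0.044), Brinp1 (0.050) and Ppp2r2a (0.051), with a median of 0.218.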

How the data were processed

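The values are log2 levels of 45101 probe sets on 16 arrays, in 1 table as deposited. Per the submitters' processing notes, RMA and affy were used (no version or role stated). RMA brings arrays to a common distribution and would hide a shift common to most genes. The values ran from 3.34 to 14.71, and array medians from 6.54 to 6.58. The sources used here name no genome build.

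Groups and replicate numbers came from the titles. The platform annotation gave 1 gene symbol to 34945 probe sets, several to 932 and none to 9160, and 64 were controls. The lmFit and eBayes functions of limma 3.58.1 (R 4.3.3) were fitted to the 34945 with 1 mean per genotype and a shared spread, without a filter. They were also run on simulated data with independent arrays and the same spread in each group. That run cannot show how the fit behaves where groups differ in spread. Members, gene lists and tests were chosen with earlier results of these data known. Named genes were every member, up to 3 genes of each store list by p among those called without overlap in R6/2 against wild type, Kcnip3, and the 3 nearest profiles; Cisd2, Grm5, Chrm1 and the marker genes were named after their values were seen. The number of arrays limits the precision. Each p-value sets a difference between groups against the spread of arrays within the groups. Pooling of tissue is not stated, so that spread may not be one between single animals. Same-numbered arrays did not deviate together (correlations from -0.46 to 0.32 over 24 pairs, 8 above 0.1), so numbers were not used to pair arrays.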

Additional observations from a re-analysis of the deposited data

Results flagged for a closer look

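In 6 of the 88 groups of 4 arrays (22 probe sets in 4 genotypes), 1 array lay far from the other 3; chance flags about 1 in 20 groups. R6/2 replicate 1 read 6.20 on Ryr1 1457347_at, where the others of its group read 5.94 to 5.97, and 8.81 on Ryr2 1450123_at, where they read 8.93 to 8.95. R6/2 replicate 3 read 6.62 on Ryr3 1432133_at against 6.95 to 6.96, and DREAM+/- replicate 2 read 10.31 on Ryr3 1427427_at against 10.18 to 10.20. R6/2 x DREAM+/- replicate 3 read 5.59 on Itpr2 1421678_at against 5.87 to 5.90, and R6/2 replicate 2 read 5.61 on Atp2a2 1443551_at against 5.31 to 5.36.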

How the results depend on the processing

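Of 2738 recomputed differences of the members, 2686 kept their side of the threshold, 37 calls were lost and 15 were gained; 0 called differences reversed, while differences near 0 that were not called could change sign. Of the 19 calls, 13 held under all alternatives run. Leaving out single arrays gave 7 to 10 called members in R6/2 against wild type, 6 to 7 in R6/2 x DREAM+/- against DREAM+/-, 0 to 1 in DREAM+/- against wild type, 0 to 2 in R6/2 x DREAM+/- against R6/2 (0 without R6/2 replicate 1) and 0 in the interaction. With 1 probe set per gene, 7 genes are tested in place of 22 probe sets. In R6/2 against wild type 5 were called, 4 lower and 1 higher. In the cross against DREAM+/- 4 were called, each lower, and in the cross against R6/2 1 was called, higher. Of all genes, 7.44%, 4.71% and 4.73% were lower and 8.22%, 3.63% and 2.91% higher in these comparisons, by the adjusted p of the main fit. In DREAM+/- against wild type, 1 (Ryr3 1432133_at) was called with the 40th percentile filter, with array weights, with only the groups of the contrast and without the 2 arrays that stand apart. In R6/2 x DREAM+/- against DREAM+/-, 8 were called (Ryr2 1450123_at added) with that filter, quantile normalization, a robust fit with a trend and array weights. In R6/2 x DREAM+/- against R6/2, 0 were called with only the groups of the contrast and 1 without the 2 arrays that stand apart. With only the groups of the contrast, 8 were called in R6/2 against wild type. The calls of Ryr1 1457347_at (limma adjusted p = 0.0623) and Atp2a2 1437797_at (0.065) were lost there. In R6/2 x DREAM+/- against DREAM+/- that setting gave 6, and the call of Atp2a2 1427250_at was lost (limma adjusted p = 0.0848). Apart from the filter and the left-out arrays, which test fewer probe sets or samples, the cause was not tested. With the replicate block, a paired fit by the titles' numbers, the counts were 10, 7, 0, 2 and 0 in the 5 comparisons and no member's call changed; 6 of 16 arrays were most like an array of their own number. Counts of the store list moved between 9 and 18 (R6/2 against wild type, 15 in the report), 4 and 11 (10), 0 and 3 (1) and 3 and 11 (6) over the alternatives. Signals near or under 5.942 limit Itpr3, Itpr2 1424833_at, 1421678_at and 1444418_at, and the R6/2 level of Ryr1 1427306_at. They also limit Ryr1 1457347_at, Ryr2 1421126_at and Atp2a2 1443551_at.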
